A study of Mus musculus with 10 samples.

Results

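The genes described here are the serpins of clades A to H in the mouse lymph node, taken by a rule on the gene symbol alone: Serpin, then a letter from a to h, then a number and any further letters. The rule found 60 of the 32285 genes in the 5 gene expression libraries, and no measured value entered it. Serpins are folded around an exposed loop that a target protease cleaves as bait, after which the inhibitor springs into a new shape and holds the protease in a covalent complex. The clade A, C, D, E, F and G members are mostly secreted into blood or tissue fluid, where they restrain coagulation, plasminogen activation, complement and leukocyte proteases. The clade B members stay mostly inside the cell and protect it from granzymes and cathepsins, and Serpinh1 is a chaperone of collagen with no inhibitory role.

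The libraries came from wild-type female BALB/c mice 8 weeks old, with 3 or more animals pooled per condition and no map from a cell to its mouse. Tumour-draining axillary nodes were taken from mice with orthotopic tumours of 4T1 or 67NR cells in the 4th mammary fat pad, at 18 days and a tumour volume of about 500 mm3. 4T1 and 67NR are mouse mammary carcinoma lines from the same original tumour, of which 4T1 is metastatic and 67NR is not. Axillary nodes were also taken from untreated naive mice and, in the stromal library only, from mice given lipopolysaccharide (LPS), a bacterial cell wall product, under the skin 72 h earlier. Conditions within a library were told apart by hashtag antibodies. Below, naive, 4T1, 67NR or LPS cells are node cells of mice under that condition. The stromal library held naive, 4T1, 67NR and LPS cells, the T cell library and the myeloid and stromal library each held naive, 4T1 and 67NR cells, and an axillary and a mediastinal atlas held naive cells only. Each condition therefore gave 1 sum of unique molecular identifiers (UMIs, each standing for 1 captured RNA molecule) per cell class and library, and levels below are counts per 1000000 UMIs of that sum (CPM), counted at the 3' end and not divided by gene length.

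The libraries held 2350 to 25148 cells after filtering, with a median of 2272 to 12899 UMIs per cell. Cells were clustered without the serpin genes and named from marker lists, and clusters whose markers or leading genes did not settle a name were left unnamed, among them 24102 of the 25148 mediastinal cells. Of the classes used below, the stromal library gave 1045 fibroblast-like, 695 blood endothelial-like and 91 lymphatic endothelial-like cells, and the myeloid and stromal library gave 701 fibroblast-like cells beside 1451 neutrophil-like, 941 monocyte-like and 535 migratory dendritic-like cells. All 10 fibroblast markers had UMIs in each of the 7 fibroblast sums. Cells with more than 1 hashtag made up 7.22% of the filtered stromal cells, 17% of the myeloid and stromal cells and 6.98% of the T cells, and were left out. Any pair of libraries shared between 3 and 76 cell barcodes, at most 0.850% of the smaller library.

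Serpin RNA was unevenly spread over these libraries. Of all UMIs it made up 0.330% in the stromal, 0.117% in the myeloid and stromal and 0.0212% in the T cell library, beside 0.0801% and 0.0354% in the axillary and mediastinal atlases. Of the 60 members, 11 had no UMI in any cell used and 27 met the rule for a description, because a class sum held at least 50 of their UMIs or because they were measured in a comparison. The other 33 are only counted: 22 of them had at least 1 UMI, the most being 209 UMIs for Serpind1, heparin cofactor II. Clade A had 24 genes, of which 12 met it, and clade B had 27 genes, of which 8 met it. Of all 301684 serpin UMIs, Serpinb9 took 19.5%, Serpinb6b 14.8%, Serping1 14.4%, Serpinb6a 11.1%, Serpinb1a 10.5% and Serpinh1 9.46%, together 79.7%.

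In the mm10 annotation the family lies largely in 3 gene clusters. The clade A genes other than Serpina7 lie on chromosome 12 between 103614786 and 104414329 (23 genes), and all 27 clade B genes lie on chromosome 1 between 106861173 and 107610484 (11 genes) or on chromosome 13 between 32842092 and 34002794 (16 genes). Neighbours within these clusters are close copies, among them Serpina1a to Serpina1e, the Serpina3 genes, and the Serpinb1, Serpinb6 and Serpinb9 groups. A UMI of such a gene may have been assigned to, or lost with, its copy, so the level of each of these genes is uncertain by an amount that was not tested.

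By CPM, fibroblast-like cells had the highest level of 15 serpins in the myeloid and stromal library, which had no endothelial class. In the stromal library they led for 5 serpins, while blood endothelial-like cells led for 8 and unnamed clusters for 8. Serping1, the inhibitor of the C1 proteases of complement and of plasma kallikrein, was at 1666 CPM in the stromal library and 969 CPM in the myeloid and stromal library. Serpinh1, the collagen chaperone, was at 706 and 723 CPM. Serpinf1, pigment epithelium-derived factor, which restrains blood vessel growth, was at 596 and 416 CPM. These genes were the most abundant serpins of fibroblast-like cells in both libraries, together with Serpinb6a, an intracellular inhibitor of cathepsin G, at 502 and 486 CPM. Serpina3n, an acute phase protein that inhibits granzyme B and leukocyte elastase, was at 128 and 156 CPM. Serpina10, the protein Z-dependent inhibitor of coagulation factor X, was at 24 and 40.1 CPM and reached 50 UMIs in no other class.

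A stromal cluster of 258 cells led by Mrgprg, Rgs6 and Smpd3 had fibroblast markers above those of any other class but none among its 10 leading genes, and was left unnamed. It had 967 CPM of Serpinh1, 649 CPM of Serping1, 636 CPM of Serpinb6a, 328 CPM of Serpinf1 and 115 CPM of Serpina3n. In the myeloid and stromal library the cluster led by Smpd3, Mrgprg and Opcml took the fibroblast name, so the class was not made up in the same way in both libraries.

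Counted by cells instead of by UMIs, Serping1 was found in 97.0% of the 1045 stromal fibroblast-like cells (median 15365 UMIs per cell) and in 8.63% of the 695 blood endothelial-like cells (median 7225 UMIs). With every cell thinned to 1000 UMIs, which left out 3 and 20 shallower cells, the shares were 71.1% and 1.04%. The 32 CD8 T-like cells of the stromal library, which should lack the gene, had a median of 8239 UMIs, and 12.5% of them had a UMI of Serping1. Of their 50 Serping1 UMIs 1 cell gave 33, so that their level of 155 CPM was set largely by that cell, whereas the blood endothelial-like cells were at 16.6 CPM. The share of blood endothelial-like cells with a UMI lay below that of the CD8 T-like cells and is not read here as expression.

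Blood endothelial-like cells had a serpin profile of their own. Serpina1b, an alpha-1-antitrypsin gene whose product inhibits neutrophil elastase, was their most abundant serpin at 971 CPM, against 114 CPM in fibroblast-like cells of the same library and 13.9 CPM in lymphatic endothelial-like cells. It was found in 58.8% of blood endothelial-like cells and 4.40% of lymphatic endothelial-like cells (median 12232 UMIs), or 27.9% and 1.11% at 1000 UMIs per cell, with 20 and 1 cells left out. Its neighbours Serpina1d (41.6 CPM) and Serpina11 (59.5 CPM) were also highest in blood endothelial-like cells, and Serpina11 reached 50 UMIs in no other class of any library. Clade B genes were abundant there too, with Serpinb1a, an inhibitor of neutrophil elastase and cathepsin G, at 350.1 CPM, and Serpinb9, the granzyme B inhibitor, at 262 CPM. In lymphatic endothelial-like cells Serpinh1 was at 321 CPM, Serpina3g, an intracellular clade A inhibitor of cathepsins, at 228 CPM and Serpinb6b at 226 CPM, and Serpine2, protease nexin 1, was at 108 CPM.

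In the leukocyte classes the abundant serpins were clade B genes. Serpinb9 was at 1433 CPM in migratory dendritic-like cells and 941 CPM in NK-like cells of the myeloid and stromal library, and at 1288 CPM in NK-like cells of the axillary atlas. Serpinb6b was high in the same cells, at 961, 694 and 882 CPM. By the share of cells with a UMI at 1000 UMIs per cell NK-like cells stood above migratory dendritic-like cells in the myeloid and stromal library for both genes, at 63.5% against 60.7% for Serpinb9 and 51.2% against 45.3% for Serpinb6b. In the myeloid and stromal library Serpinb9 was found in 96.4% of the migratory dendritic-like cells (median 21752 UMIs) and in 4.27% of the neutrophil-like cells (median 4816 UMIs), and at 1000 UMIs per cell, with 3 and 31 cells left out, the shares were 60.7% and 1.13%. Serpinb9b, a close copy of Serpinb9, was highest in NK-like cells at 73.9 and 138 CPM.

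Serpinb1a had another distribution: in the axillary atlas it was at 550.4 CPM in an unnamed cluster of 831 cells with Il23r and Il17f among its leading genes, 547 CPM in gamma-delta T-like cells, 452 CPM in innate lymphoid-like cells, 144 CPM in CD4 T-like cells and 135 CPM in B-like cells. Of the 3 gamma-delta clusters, 1 was led by stress genes such as Hspa1a and Fos. Serpinb8 was highest, among named classes, in macrophage-like cells (48.9 CPM) and monocyte-like cells (34.6 CPM) of the myeloid and stromal library. Serpina3g was there at 82.8 CPM in macrophage-like and 60.7 CPM in fibroblast-like cells, with a UMI in 4.91% and 5.33% of the cells at 1000 UMIs per cell, so that the order depended on the measure. It reached 32.9 CPM in regulatory T-like cells against 3.77 CPM in CD4 T-like and 1.75 CPM in CD8 T-like cells in the T cell library. Its level in axillary atlas cells was 112 CPM in cDC1-like cells, conventional dendritic cells of type 1, and 65.9 CPM in innate lymphoid-like cells, but at 1000 UMIs per cell the shares of cells with a UMI stood the other way, at 4.08% and 7.43%. Serpinb2, plasminogen activator inhibitor 2, was concentrated in an unnamed cluster of 111 cells led by Il4 and Ccl3, at 1609 CPM against 13 CPM in cDC2-like cells, conventional dendritic cells of type 2. That cluster was shallow, with a median of 898 UMIs per cell where the myeloid and stromal library had 10802.5.

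The other described members were scarce. Serpina3c was at 14.0 and 24.8 CPM in fibroblast-like cells of the stromal and the myeloid and stromal library, Serpina3i at 7.66 and 9.67 CPM, and Serpine3 at 24.9 and 13 CPM. Serpina3f was highest in an unnamed stromal cluster led by Ccl20 and Coch, at 67.1 CPM, where Serpina3g was at 586 CPM and Serpina12, known as vaspin, at 32.1 CPM. Serpina1c (16.4 CPM) and Serpinc1, the antithrombin gene (9.49 CPM), were highest by CPM of the named classes in blood endothelial-like cells, but in the stromal library a larger share of fibroblast-like cells had a UMI of them at 1000 UMIs per cell. Serpina9 was found at 4.91 CPM in CD4 T-like cells and Serpinb5, known as maspin, at 1.78 CPM in CD8 T-like cells. The levels of Serpina9 and Serpinb5 rest on 86 and 99 UMIs.

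**Figure D1:**
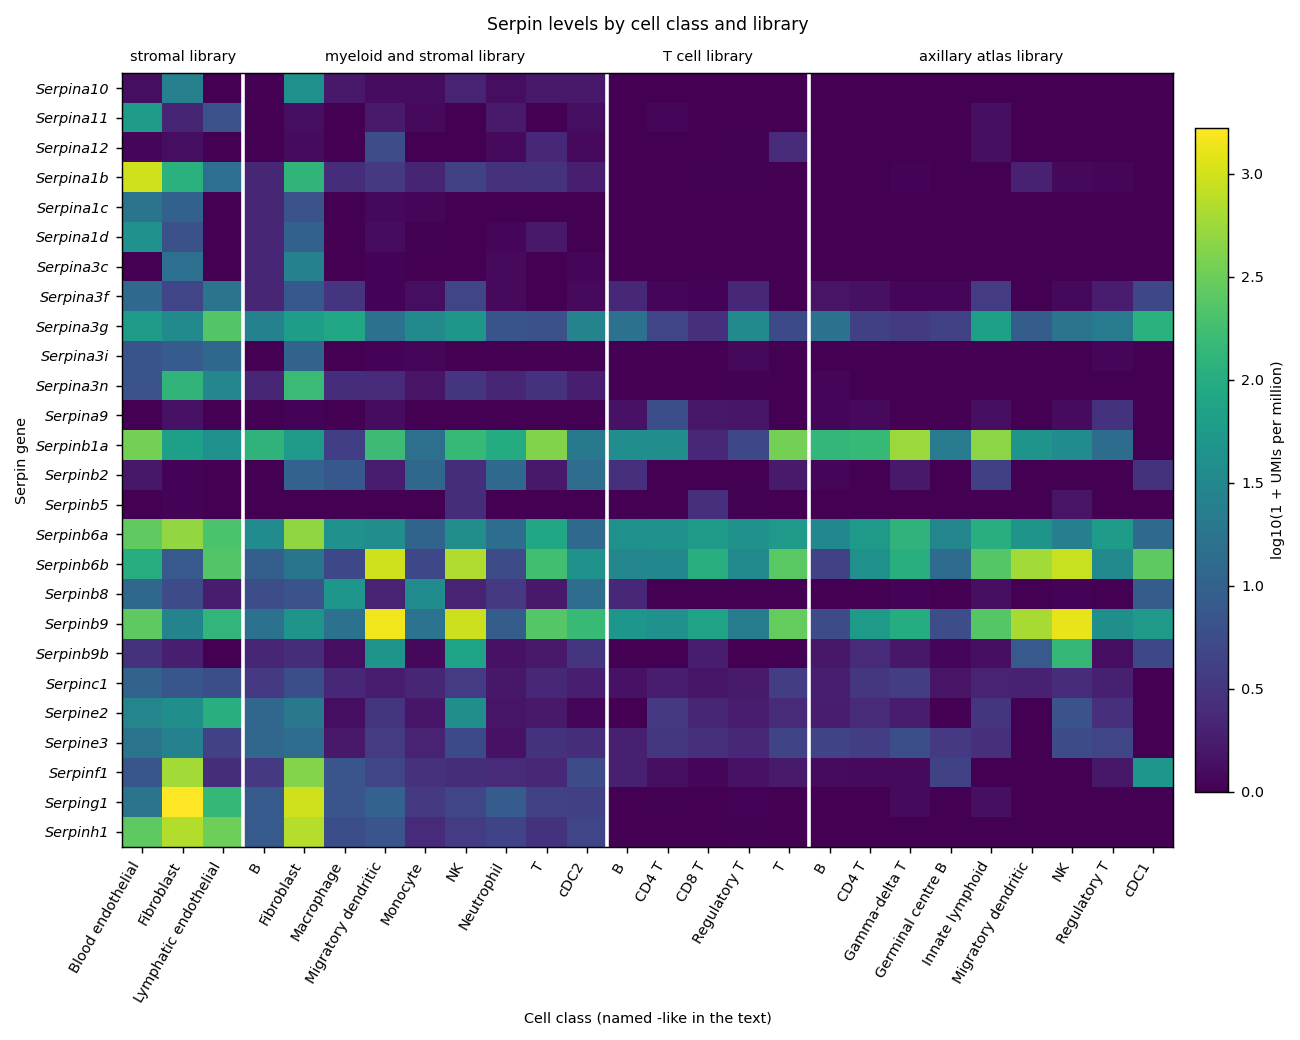
Level of 26 serpins (rows) in each named class of at least 50 cells (columns) of 4 libraries, with all conditions summed; colour is log10 of 1 plus CPM. Serping1, Serpinh1 and Serpinf1 stand out in fibroblast-like cells, Serpina1b in blood endothelial-like cells, and Serpinb9 and Serpinb6b in NK-like and migratory dendritic-like cells.

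The fibroblast-like cells were the only stromal class compared in 2 hashtagged libraries, which allowed a test of the tumour conditions against naive nodes over 6 sums with the library as a block, each of 122 to 348 cells, leaving 2 residual degrees of freedom. At an adjusted p under 0.05 (edgeR quasi-likelihood test, Benjamini-Hochberg over 12822 genes), 57 genes passed in 4T1 over naive, 0.445% of those tested, and 71 in 67NR over naive, 0.554%. Of the 23 serpins that passed the filter on low counts, 3 rose in 4T1 and 4 rose in 67NR, and none fell. All of those were clade A genes: Serpina1b, Serpina10 and Serpina3n in both contrasts, and Serpina3g in 67NR. Between 4T1 and 67NR 0 serpins passed by edgeR, 0 had an unadjusted p under 0.05 and 0 passed by DESeq2, while 3 genes of all kinds passed, 0.0234%. Both tumour contrasts share the same naive sums. A bulk sum cannot tell fewer cells that hold a gene from less RNA per cell, and values by cluster are given below.

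Serpina3n had 59.8 CPM in naive, 209 CPM in 4T1 and 223 CPM in 67NR fibroblast-like cells of the stromal library, and 90.0, 203 and 165 CPM in the myeloid and stromal library. The tumour sums did not overlap with the naive sums, but the fit was made on these same sums. The same held in both contrasts for members that did not pass, among them Serpina1d, Serpina3f, Serpina3i and Serpinh1. The share of all genes without overlap was not counted. Its log2 fold change was 1.51 (SE 0.215, adjusted p = 0.0443, edgeR) in 4T1 and 1.42 (SE 0.214, adjusted p = 0.0377) in 67NR.

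Serpina1b had 63.7, 169 and 183 CPM in naive, 4T1 and 67NR cells of the stromal library, and 69.0, 147 and 151 CPM in the other. Each tumour sum lay above both naive sums, as for the members named above that did not pass. The log2 fold change was 1.30 (SE 0.146, adjusted p = 0.0308, edgeR) in 4T1 and 1.37 (SE 0.144, adjusted p = 0.0237) in 67NR.

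Serpina3g had 8.12, 53.7 and 69.5 CPM in the stromal library, and 27.0, 69.3 and 77.2 CPM in the myeloid and stromal library. Serpina10 had 5.56, 44.6 and 45.5 CPM in the stromal library, and 16.9, 44.6 and 52.5 CPM in the other. For both genes the tumour sums did not overlap with the naive sums, as for the members named above that did not pass. Here too the share of all genes without overlap was not counted. The naive level of both was lower in the stromal library. For Serpina10 the log2 fold change was 2.01 (SE 0.308, adjusted p = 0.0471, edgeR) in 4T1 and 2.15 (SE 0.296, adjusted p = 0.0292) in 67NR. For Serpina3g it was 2.14 (SE 0.291, adjusted p = 0.0292, edgeR) in 67NR, and in 4T1 it was 1.87 (SE 0.300, adjusted p = 0.0553), which did not pass. Without the 5% of droplets of the compared conditions richest in each gene, which takes out more cells of the condition with the higher level, the log2 ratio of Serpina10 in the myeloid and stromal library turned to -0.35 in 4T1 and was 0.79 in 67NR, and in the stromal library it was 1.80 in 67NR. That of Serpina3g was 0.14 and 1.51 in the stromal and 0.56 and 1.08 in the myeloid and stromal library.

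**Figure D2:**
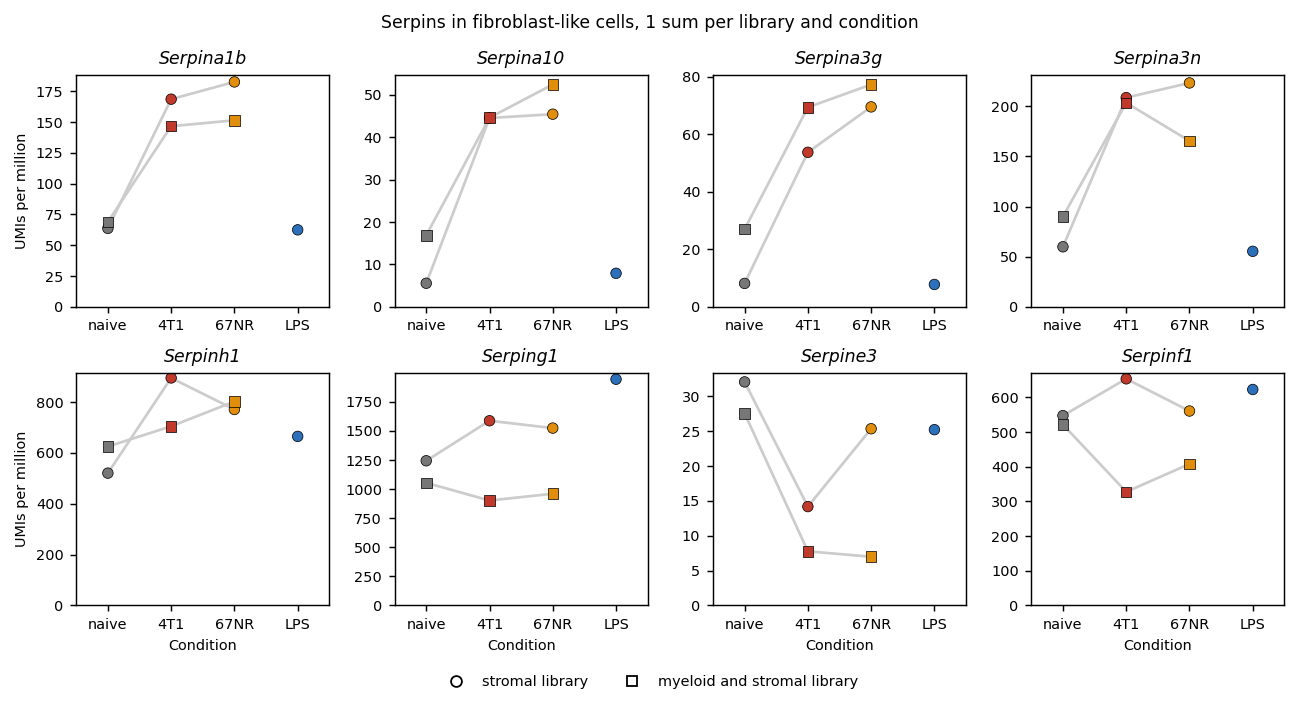
Level of 8 serpins in each sum of fibroblast-like cells, as CPM on a linear axis from 0, by condition; circles are the stromal library, squares the myeloid and stromal library, and grey lines join the naive, 4T1 and 67NR sums of a library. For Serpina1b, Serpina10, Serpina3g, Serpina3n and Serpinh1 the tumour sums of both libraries lie above both naive sums, and the LPS sum lies below all 4 tumour sums. Serpinh1 did not pass in the fit of these sums.

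These calls rest on 6 sums and depended on single sums, on the block and on which clusters were named. Without the 67NR sum of the stromal library none of the 4 genes passed in 67NR (adjusted p = 0.168 for Serpina1b, 0.186 for Serpina10, 0.186 for Serpina3g and 0.259 for Serpina3n, edgeR), with log2 fold changes of 1.26, 2.01, 1.84 and 1.07. In 4T1 that sum also decided Serpina10 (adjusted p = 0.0660 without it, at 2.04), and the 4T1 sum of the myeloid and stromal library decided Serpina3n (adjusted p = 0.0706 without it, at 1.53). Without the naive sum of the stromal or of the myeloid and stromal library more serpins passed, 8 and 8 in 4T1 and 7 and 10 in 67NR, and the number of genes of all kinds that passed rose in larger proportion, to 622 and 359 in 4T1 and 544 and 465 in 67NR. The 4T1 calls of Serpina10 and Serpina3n were also lost with RLE scaling (adjusted p = 0.0514 and 0.0514, at log2 fold changes of 2.01 and 1.51) and with cells thinned to 1000 UMIs (0.400 and 0.234, at 1.63 and 1.14), and that of Serpina10 with at most 5% mitochondrial UMIs (0.0526, at 1.89). With no library block no gene of any kind passed in either contrast, while the log2 fold changes of Serpina1b, Serpina10, Serpina3g and Serpina3n were 1.31, 2.02, 1.86 and 1.52 in 4T1 and 1.38, 2.15, 2.10 and 1.43 in 67NR. DESeq2 with the same block called all 4 genes in both contrasts.

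With the unnamed clusters joined to the class whose markers led them, an alternative chosen after the data were seen, the added clusters made up 3.63% of the naive, 24.7% of the 4T1, 43.3% of the 67NR and 3.71% of the LPS cells of the wider fibroblast class in the stromal library, and 2.25%, 2.40% and 5.39% of its naive, 4T1 and 67NR cells in the other. The stromal cells left out by the naming rule were thus mostly from tumour nodes. Serpina1b then had 61.7, 123 and 97.7 CPM and Serpina10 5.35, 32.4 and 24.1 CPM in naive, 4T1 and 67NR stromal cells. All 4 genes passed in 67NR, but in 4T1 Serpina1b (adjusted p = 0.0796, edgeR) and Serpina10 (adjusted p = 0.0674) did not, while Serpina3g did (adjusted p = 0.0497). Clustering seed 3 gave 3 and 4 called serpins in 4T1 and 67NR, as above. Seed 2 left the class at 1045 stromal and 701 myeloid and stromal cells and gave the same fit, so it is no further check.

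The remaining serpins of fibroblast-like cells did not pass in either contrast by edgeR. Of the 23 members, the called ones included, 11 had an unadjusted p under 0.05 in each contrast, beside 1533 and 1498 of the 12822 genes. Serpina1d had log2 fold changes of 2.04 (adjusted p = 0.110, edgeR) in 4T1 and 1.81 (adjusted p = 0.118) in 67NR. In the same order Serpina3f had 2.54 and 2.42, Serpina3i 1.37 and 1.07 and Serpina1a 2.37 and 1.23 (adjusted p = 0.180 to 0.693, edgeR). These members were scarce, with 1 to 16 UMIs in the naive stromal sum. Serpinh1 had 521, 895 and 771 CPM in naive, 4T1 and 67NR cells of the stromal library and 625, 705 and 803 CPM in the other, a log2 fold change of 0.54 (adjusted p = 0.244, edgeR) and 0.51 (adjusted p = 0.245). Serpine3 had the lowest fold change of the 23 members in both contrasts, with 32.1, 14.2 and 25.3 CPM and then 27.5, 7.76 and 6.98 CPM, or -1.46 (adjusted p = 0.192, edgeR) and -1.01 (adjusted p = 0.281), and in the clusters led by Ccl19 alone its sign was the opposite (1.45 and 1.27).

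Serping1, the most abundant member, had 1244, 1588 and 1525 CPM in the stromal library and 1054, 902 and 961 CPM in the myeloid and stromal library, so that its tumour sums lay above naive in the first and below naive in the second. By cluster of the second library, naive, 4T1 and 67NR cells had 1202, 1523 and 1449.6 CPM in the cluster led by Apod and Iigp1 and 1243, 1308 and 1223 CPM in the cluster with Ccl19 among its leading genes. In the cluster led by Smpd3 and Mrgprg they had 735, 560.0 and 474 CPM, and that cluster held 26.7%, 53.2% and 37.7% of the fibroblast-like cells. Serpinf1 and Serpinb6a also overlapped between conditions, at 328 to 654 CPM and 386 to 496 CPM. Over the 23 members tested the median log2 fold change was 0.44 in 4T1 and 0.58 in 67NR, beside 0.0069 and 0.00017 over all 12822 genes, and 19 and 18 members had a positive value, beside 50.8% and 50.01% of all genes.

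**Figure D3:**
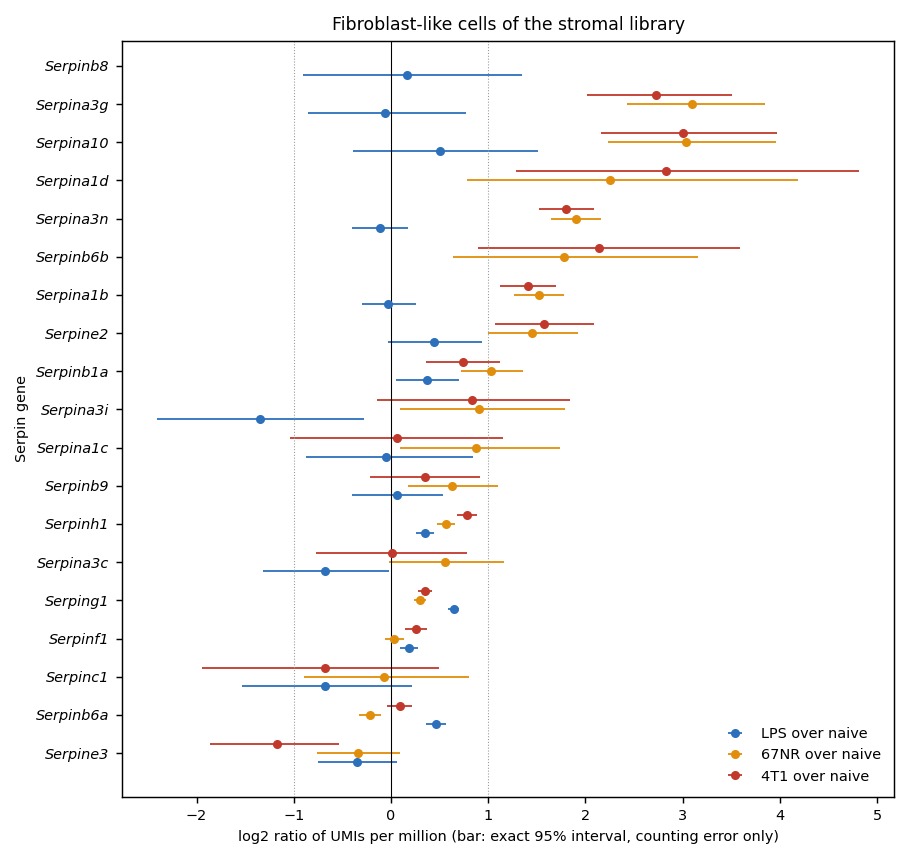
Log2 ratio of CPM over naive for measured serpins in fibroblast-like cells of the stromal library, with exact 95% intervals that cover counting error only; dotted lines mark a log2 ratio of 1 and -1. Serpina3g, Serpina10, Serpina3n and Serpina1b lie to the right of 1 in 4T1 and 67NR, and their LPS intervals include 0.

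Within the fibroblast-like cells Serpina1b, Serpina10 and Serpina3g were concentrated in 1 cluster of each library. This was the cluster with Ccl19, a chemokine of the reticular cells that guide T cells in the node, among its leading genes, together with Ccl21a, Dsc3, Grem1 and Tagln in both libraries. In the stromal Ccl19-led cluster Serpina1b was at 585 CPM in naive, 930.2 CPM in 4T1, 734 CPM in 67NR and 353 CPM in LPS cells, while the sums of 20 or more cells of the other fibroblast clusters of that library lay at 70.2 CPM or less. Serpina10 was at 61.3, 250.3, 195 and 53.3 CPM in the same order, and Serpina3g at 56.6, 287, 259 and 40.01 CPM. In the myeloid and stromal library the Ccl19-led cluster had, in naive, 4T1 and 67NR, 562, 715 and 729.9 CPM of Serpina1b, 139, 222 and 246 CPM of Serpina10 and 149, 293 and 299 CPM of Serpina3g. In both libraries naive cells of this cluster had a lower level of each gene than its cells from tumour nodes.

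The share of fibroblast-like cells that fell in the Ccl19-led cluster also differed between conditions. It was 12.4% in naive, 21.3% in 4T1, 25.6% in 67NR and 15.2% in LPS nodes of the stromal library, and 22.1%, 30.5% and 29.2% in naive, 4T1 and 67NR nodes of the other. These shares carry no test and depend on the genes that define the cluster. With the same fit on the Ccl19-led clusters alone, which holds fewer cells and 7966 genes, Serpina1b had a log2 fold change of 0.56 (adjusted p = 0.278, edgeR) in 4T1 and 0.41 (adjusted p = 0.424) in 67NR. Serpina3g had 1.51 (adjusted p = 0.0663, edgeR) and 1.47 (adjusted p = 0.0544), Serpina10 had 1.25 (adjusted p = 0.127) and 1.16 (adjusted p = 0.121), and Serpina3n had 1.29 (adjusted p = 0.0912) and 0.93 (adjusted p = 0.201). None of the 4 passed there. That fit was added after the data were seen.

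Serpinh1, the collagen chaperone, passed in both contrasts in that fit on the Ccl19-led clusters alone, added after the data were seen. Over all fibroblast-like cells it did not pass (adjusted p = 0.244 in 4T1 and 0.245 in 67NR, edgeR). The numbers of genes of all kinds that passed in the added fit are given with the other alternatives below. Serpinh1 had 311, 765 and 673 CPM in naive, 4T1 and 67NR cells of the stromal and 319, 659.7 and 588 CPM of the myeloid and stromal Ccl19-led cluster, with the naive sum the lowest in both. Its log2 fold change in the added fit was 1.22 (adjusted p = 0.0273, edgeR) in 4T1 and 1.05 (adjusted p = 0.0433) in 67NR.

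Serpina3n was not concentrated in that way and was found in each fibroblast cluster. In the stromal cluster with Olr1 and Il6 among its leading genes it was at 81.8 CPM in naive, 275 CPM in 4T1, 280.1 CPM in 67NR and 88.2 CPM in LPS cells. In the cluster led by Mgp, Cilp and Ccn5 it was at 55.2, 162, 148 and 41.8 CPM. In the myeloid and stromal cluster led by Apod, Iigp1 and Mgp it was at 72.3, 205 and 182 CPM. Its level was above naive in each of the 3 clusters compared for 4T1 and the 5 compared for 67NR in the stromal library, and in 3 of 3 clusters for each tumour in the other. With the clusters of a library weighted equally, an added alternative, the log2 ratio was 1.66 in 4T1 and 1.89 in 67NR for the stromal library, and 1.10 and 0.64 for the myeloid and stromal library.

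**Figure D4:**
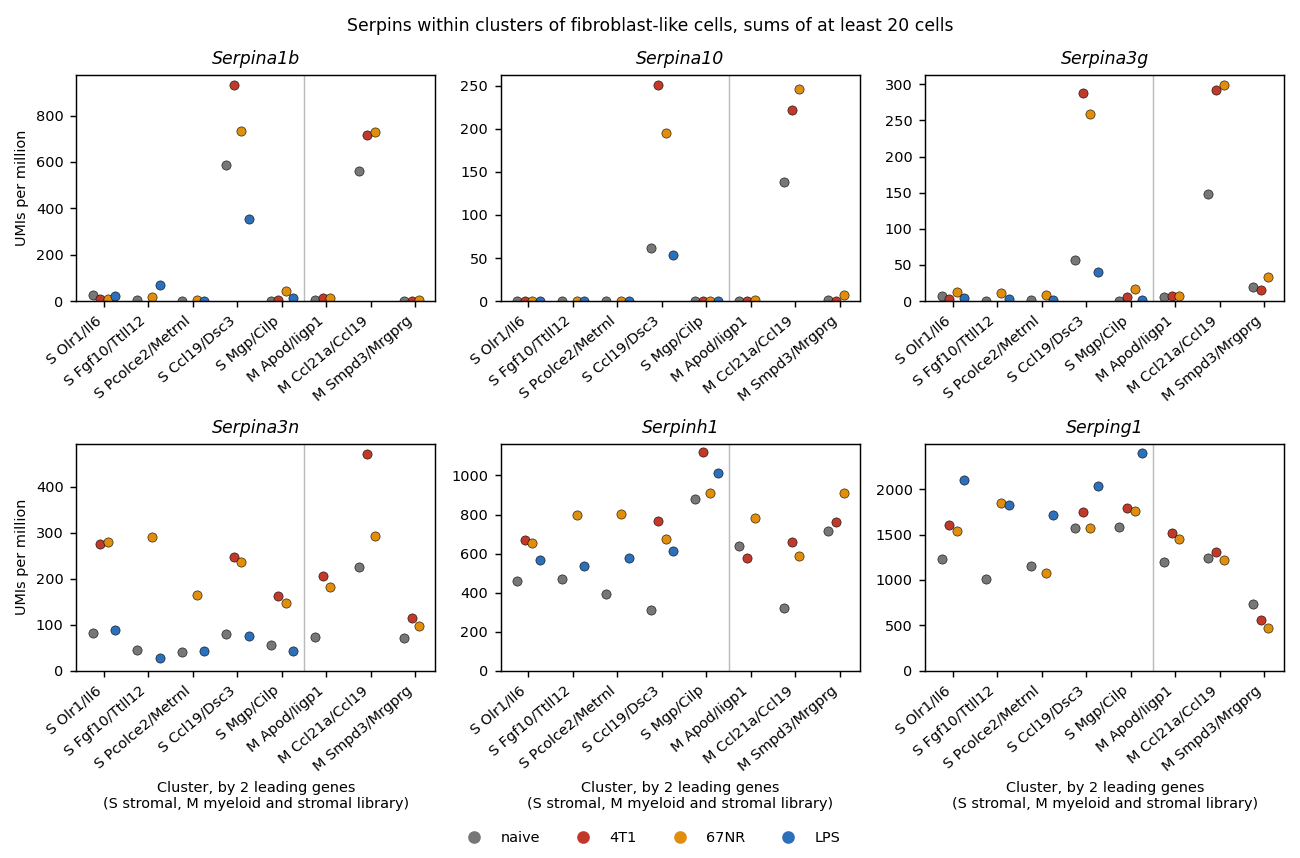
Level of 6 serpins, as CPM, in each cluster of fibroblast-like cells and condition with at least 20 cells; S marks the stromal and M the myeloid and stromal library, clusters are named by 2 leading genes, and each point is 1 sum. Serpina1b, Serpina10 and Serpina3g are high in the Ccl19-led clusters, Serpina3n is above naive in the tumour sums of every cluster shown, and Serping1 is highest in LPS in each stromal cluster shown but 1.

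Other measures moved with the same sums. The summed level of 9 genes induced by tissue dissociation was highest in naive cells of both libraries, at 21519 CPM against 17425 CPM in 4T1, 16900.1 CPM in 67NR and 13862 CPM in LPS (stromal), and at 12879 CPM against 8707 and 10807 CPM (myeloid and stromal). The lymphatic endothelial marker list, which includes Ccl21a, a leading gene of both Ccl19-led clusters, was at 1539, 3784 and 5159 CPM in naive, 4T1 and 67NR and 731 CPM in LPS fibroblast-like cells of the stromal library, and 1609, 2657 and 3453 CPM in the other, with 6 to 8 of its 8 genes having UMIs and Mmrn1 at 0 in 5 of the 7 sums. The monocyte list was at 3092, 6764 and 5899 CPM in the myeloid and stromal library and 1267 to 1798 CPM in the stromal library. The blood endothelial list, which marks the cells richest in Serpina1b, was at 175, 150.4 and 273 CPM in naive, 4T1 and 67NR cells of the stromal and 191, 264 and 206 CPM of the myeloid and stromal library. The pericyte and smooth muscle list was higher in the tumour sums of both libraries, at 331, 465 and 576 CPM and 252, 382 and 399 CPM, and so were the T cell list, at 22.2, 57.7 and 66.7 CPM and 172, 266 and 244 CPM, and the B cell list, at 2.56, 7.09 and 21.5 CPM and 24.6, 42.4 and 60.3 CPM. Of the blood endothelial, pericyte, T and B lists 9 to 10 of 10, 7 of 7, 5 to 7 of 7 and 2 to 8 of 8 genes had UMIs over the 7 sums. The part of these in the serpin differences was not tested.

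The called clade A genes with a RefSeq promoter window are shown here, because they lie in 1 gene cluster and rose together in 67NR, with the 250 bases before the start site on the gene's own strand (GRCm38.p6, 5′ to 3′). Capitals mark matches to GGG, any 2 bases and then TTTCC, a motif of the NF-kB kind, or TTCNNNGAA, the gamma-activated site bound by STAT factors, searched on both strands and without overlap between the motifs. Serpina10 is named only. The windows are chr12:103738190-103738439 on the minus strand for Serpina1b, chr12:104235897-104236146 on the plus strand for Serpina3g and chr12:104406458-104406707 on the plus strand for Serpina3n.
Serpina1b: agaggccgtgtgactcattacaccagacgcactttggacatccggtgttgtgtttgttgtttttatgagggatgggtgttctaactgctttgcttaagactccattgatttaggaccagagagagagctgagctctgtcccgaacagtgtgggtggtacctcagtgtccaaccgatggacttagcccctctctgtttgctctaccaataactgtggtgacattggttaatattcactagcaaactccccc
Serpina3g: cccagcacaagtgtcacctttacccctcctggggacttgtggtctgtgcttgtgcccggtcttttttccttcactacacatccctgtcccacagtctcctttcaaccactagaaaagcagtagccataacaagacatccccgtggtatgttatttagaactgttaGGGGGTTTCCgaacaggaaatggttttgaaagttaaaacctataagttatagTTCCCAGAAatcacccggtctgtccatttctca
Serpina3n: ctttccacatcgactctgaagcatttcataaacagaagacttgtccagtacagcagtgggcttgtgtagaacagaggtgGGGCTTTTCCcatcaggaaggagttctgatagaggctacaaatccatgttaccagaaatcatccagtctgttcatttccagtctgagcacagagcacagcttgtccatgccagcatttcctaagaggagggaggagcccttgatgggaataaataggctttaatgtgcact
Serpina3g held GGGGGTTTCC from 85 to 76 bases and TTCCCAGAA from 33 to 25 bases before its start, Serpina3n held GGGCTTTTCC from 171 to 162 bases before its start, and the Serpina1b window matched neither motif. The NF-kB motif was found in 1.41% of the 32851 windows of this length and in 3 of the 52 serpins with a window, which were Serpina3g, Serpina3i and Serpina3n. TTCNNNGAA was found in 7.02% of all windows and in 8 of the 52 serpins. A match describes the letters only.

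The LPS comparison asks how the same cells stood after a bacterial stimulus without a tumour. It has 1 sum per condition, 389 LPS and 186 naive cells, so it has no test, and each interval covers counting error only. Serping1 was at 1244 CPM in naive and 1945 CPM in LPS cells, a log2 ratio of 0.64 (95% interval 0.59 to 0.70), and was above naive in each of the 5 clusters compared, at 1719 to 2403 CPM against 1010.5 to 1583 CPM. Serpinb6a was at 449 and 618 CPM (0.46, interval 0.36 to 0.56) and Serpinh1 at 521 and 665 CPM (0.35, 0.26 to 0.45). Over the whole class the clade A genes that rose in tumour nodes had LPS intervals that include 0. Serpina3n had 55.3 CPM in LPS (-0.11, interval -0.40 to 0.18), Serpina1b 62.5 CPM (-0.027, -0.30 to 0.25), Serpina3g 7.76 CPM (-0.066, -0.85 to 0.77) and Serpina10 7.91 CPM (0.51, -0.39 to 1.51). Within the Ccl19-led cluster the LPS levels of Serpina1b, Serpina3g and Serpina10 given above were lower than the naive ones. That cluster held 12.4% of the naive and 15.2% of the LPS cells, and the part of this was not tested.

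At a log2 ratio of 1 or more in size, 0 of the 18 measured serpins were higher and 1 was lower in LPS fibroblast-like cells, where 4.37% of the 10996 measured genes were past that size. The lower member was Serpina3i, at 2.69 against 6.84 CPM (-1.35, interval -2.40 to -0.28). Other genes of the same cells differed widely 72 h after injection. Saa3, an acute phase gene, had a log2 ratio of 8.02 (interval 6.16 to 11.1) and Cfb, complement factor B, one of 2.37 (2.19 to 2.56), at 108 CPM in naive and 559 CPM in LPS. C1ra, of the complement C1 complex that Serping1 inhibits, was at 249 and 387 CPM (0.63, 0.50 to 0.77). In the same comparison the share of cells in the cluster led by Pcolce2 and Dpp4 was 38.3% in LPS and 18.3% in naive nodes, and the dissociation genes were lower in LPS, Hspa1b at 75.0 against 307 CPM, and their part was not tested.

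Blood endothelial-like cells of the stromal library were compared with 1 sum per condition and no test, from 164 cells of naive, 195 of 4T1, 198 of 67NR and 138 of LPS nodes. Their leading serpin, Serpina1b, had 929 CPM in naive, 1068 CPM in 4T1, 983 CPM in 67NR and 849.8 CPM in LPS. Serpina3g was higher in all 3 conditions, at 25.7 CPM in naive, 56.4 CPM in 4T1, 86.1 CPM in 67NR and 56.6 CPM in LPS. Serpina11 had 25.7, 63.9, 86.6 and 47.4 CPM in the same order. Serpinb1a had 275 CPM in naive, 397 CPM in 4T1, 405 CPM in 67NR and 275 CPM in LPS, and Serpinb9 had 206, 276, 312 and 225 CPM, so that both stood higher in the tumour sums than in the naive and LPS sums. Past a log2 ratio of 1, 2 of 16 measured serpins were higher in 4T1 and 0 lower (4.96% of all measured genes past it in either direction), 4 of 17 were higher and 2 lower in 67NR (5.16%), and 3 of 16 were higher and 2 lower in LPS (5.61%).

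The log2 ratio of Serpina3g was 1.14 (interval 0.58 to 1.73) in 4T1, 1.75 (1.21 to 2.32) in 67NR and 1.14 (0.54 to 1.77) in LPS. That of Serpina11 was 1.32 (0.77 to 1.90) in 4T1 and 1.76 (1.22 to 2.32) in 67NR. Serpina11 came from few cells: without the 5% of droplets with most of its UMIs the 4T1 ratio was -0.53. Blood endothelial-like cells of tumour nodes held both genes mostly in the cluster led by Glycam1, Hamp and Selp, genes of high endothelial venules. That cluster had 21 of the naive, 25 of the 4T1, 40 of the 67NR and 14 of the LPS cells. In it Serpina3g was at 56.7, 138, 190.2 and 119.8 CPM and Serpina11 at 44.9, 128, 203 and 138 CPM in that order. Serpine3 was lower in 67NR (-1.38, interval -2.22 to -0.58) and LPS (-1.10, interval -2.02 to -0.24). Serping1 was at 14.7 CPM in naive and 30.6 CPM in LPS (1.06, interval 0.25 to 1.91), from a share of cells not read as expression above. Serpina1c, a close copy of Serpina1b, had 3 UMIs in LPS and 23 in naive cells (-2.88, interval -5.26 to -1.15).

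In the myeloid classes Serpinb6b had ratios of opposite sign by cell type, again with 1 sum per condition and no test of the difference. Migratory dendritic-like cells, which carry antigen from tissue to the node, had 784 CPM of Serpinb6b in naive, 1238 CPM in 4T1 and 1297 CPM in 67NR nodes (log2 ratio 0.66, 0.59 to 0.72, and 0.73, 0.66 to 0.79). The cluster led by Ccl22, Ehf and Fscn1 held 85.1% of the naive, 74.8% of the 4T1 and 75.9% of the 67NR cells of this class. That led by Epsti1 and Zmynd15 held 5.73%, 15.5% and 18.1%, and the part of these shares was not tested. Serpinb9 of migratory dendritic-like cells was at 1463, 1340.2 and 1432 CPM. Monocyte-like cells held little of either gene and less of both in tumour nodes: Serpinb6b was at 10.8, 2.50 and 1.81 CPM (-2.10 and -2.57), and Serpinb9 at 35.8, 9.30 and 16.3 CPM (-1.95 and -1.13). The 67NR ratio of Serpinb9 in monocyte-like cells came out at 0.059 with at most 5% mitochondrial UMIs and 0.17 without the 5% of droplets richest in it. The naive levels rest on few cells: the 8 naive cells of the cluster led by the cell cycle genes Ube2c and Top2a, of 220 in all, gave 18 of 39 Serpinb6b UMIs and 64 of 130 Serpinb9 UMIs. The cluster led by Ifit2 and Ifi44 held 27.7% of naive, 6.29% of 4T1 and 9.43% of 67NR monocyte-like cells. The one led by Vcan and F13a1 held 16.4%, 41.5% and 37.3% in that order, and the part of these shares was not tested. In the cluster led by Ly6i, Aif1 and Ms4a6d naive, 4T1 and 67NR cells had 11.8, 2.25 and 2.24 CPM of Serpinb6b and 34.2, 8.40 and 26.3 CPM of Serpinb9. Serpinb8 was at 39.7, 34.8 and 29.0 CPM.

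In migratory dendritic-like cells 2 of 10 measured serpins were past a log2 ratio of 1 in 4T1, where 7.51% of all measured genes were, and 1 of 8 in 67NR (7.09%). Serpinh1 was among them in 4T1, at 3.58 CPM in naive and 15.1 CPM in 4T1 cells (2.08, 1.31 to 2.87), from 26 and 35 UMIs, of which 1 cell of 4T1 gave 28. In the cluster that held most of the class, led by Ccl22, Ehf and Fscn1, it was at 3.82 and 3.40 CPM. In monocyte-like cells 3 of 8 were lower in 4T1 (7.46% of genes past it) and 3 of 8 in 67NR (5.98%). The members were Serpinb6b, Serpinb9 and Serping1 in both. Neutrophil-like cells had 3 of 7 past it in 4T1 (19.1% of genes) and 2 of 6 in 67NR (14.3%). Serpinb6b and Serpinb9 were lower in both, and Serpina3g was higher in 4T1. Their Serpina3g was at 2.43 CPM in naive and 18.8 CPM in 4T1 cells (2.95, 1.61 to 4.64), from 5 and 44 UMIs, 24 of them in 1 cell. Serpinb1a, which keeps neutrophil granule proteases in check, was at 74.0, 84.8 and 109 CPM in naive, 4T1 and 67NR neutrophil-like cells (0.20, -0.12 to 0.51, and 0.56, 0.30 to 0.83). The conditions drew their neutrophil-like cells from different clusters: those led by Trem1 and by Rsad2 held 436 of 475 naive cells, the one led by Saa3 199 of 261 4T1 cells and the one led by Retnlg 270 of 715 67NR cells. A cluster of 385 cells led by Hcar2 and Ccrl2, with neutrophil markers above those of any other class, was left unnamed. With clustering seeds 2 and 3 the class had 1836 in place of 1451 cells. Serpinb1a was highest in the cluster led by the granule genes Camp, Ltf and Ngp, at 519.9, 328 and 386 CPM in naive, 4T1 and 67NR, from 18, 14 and 76 cells.

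In cDC2-like cells 2 of 8 measured serpins were lower in 4T1 (7.66% of genes past a log2 ratio of 1) and 3 of 7 in 67NR (6.68%), and none was higher. The class joined a cluster led by Cd209d, Cd209a and Mgl2 with one led by Lyz1, Mmp12 and Dcstamp, genes of monocytes and macrophages. The first held 161 of 212 naive, 52 of 94 4T1 and 48 of 111 67NR cells. With clustering seed 2 the cells of the second took other names, and the class had 260 in place of 417 cells. Serpinb9 was at 207, 94.3 and 96.7 CPM in naive, 4T1 and 67NR cells (-1.13, -1.35 to -0.92, and -1.10, -1.31 to -0.89), and the ratios were -0.75 and -0.55 with seed 2, no longer past 1. It was at 241, 144 and 166 CPM in the first and 67.0, 23.0 and 34.7 CPM in the second cluster. Serpinb6b was at 53.2, 55.5 and 18.3 CPM, lowest in 67NR (-1.54, -2.04 to -1.08), with a ratio of -1.07 with seed 2. Serpinb1a, at 0.67 in 67NR, was past 1 with seed 2 (1.49). Serpinb2 was at 24.9 CPM in naive cells and came from few of them: 6.6% had a UMI and 1 cell gave 33 of the 118 UMIs, beside 1 UMI in 4T1 (-5.79, -11.10 to -3.28) and 3 UMIs in 67NR cells (-4.32, -6.62 to -2.74).

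**Figure D5:**
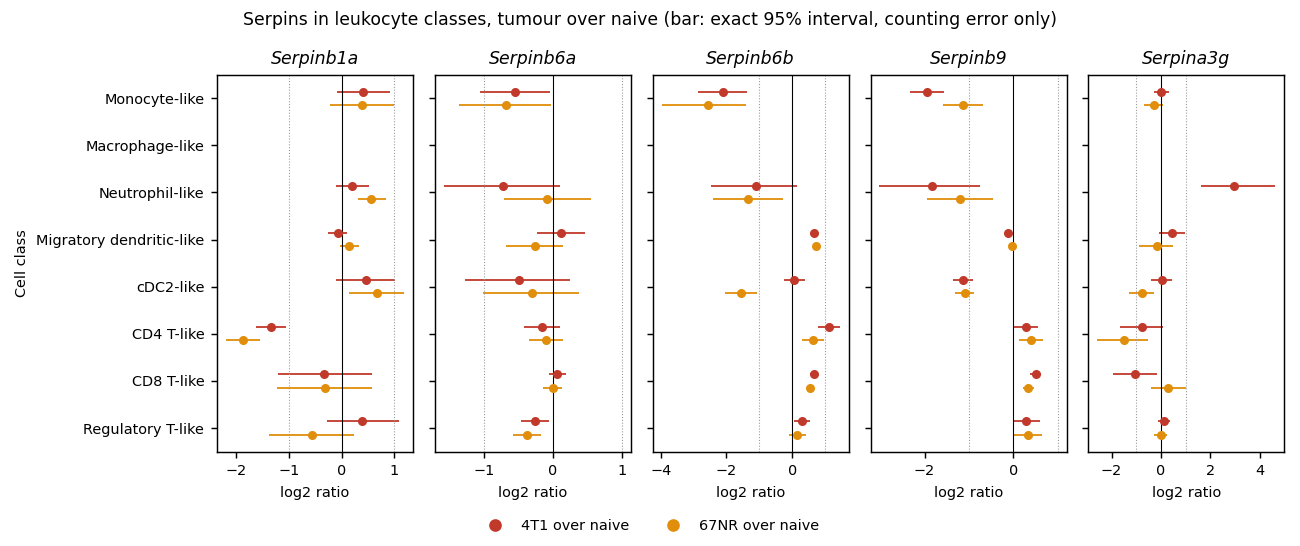
Log2 ratio of CPM in 4T1 and 67NR over naive for 5 serpins in leukocyte classes, where measured, with exact 95% intervals that cover counting error only; dotted lines mark a log2 ratio of 1 and -1. Serpinb6b lies above 0 in migratory dendritic-like and CD8 T-like cells and below 0 in monocyte-like cells in both tumour conditions.

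The lymphocyte classes of the T cell library also had 1 sum per condition. In CD8 T-like cells Serpinb6b was at 75.6 CPM in naive, 119 CPM in 4T1 and 109 CPM in 67NR nodes (log2 ratio 0.65, 0.55 to 0.75, and 0.53, 0.43 to 0.64), and Serpinb9, which shields a killer cell from its own granzyme B, was at 57.4, 81.4 and 72.6 CPM (0.50, 0.38 to 0.63, and 0.34, 0.22 to 0.46). Serpina3g, the one serpin past a log2 ratio of 1 in these cells, lower in 4T1, was scarce, at 1.98, 0.959 and 2.40 CPM (-1.05, -1.95 to -0.18, and 0.27, -0.42 to 0.99). The summed granule serine proteases of those cells, the granzymes among them, were at 109 CPM in naive, 357 CPM in 4T1 and 187 CPM in 67NR. The cluster led by Gzma and Hist1h2ap, with a median of 37918 UMIs per cell, held 8.38%, 14.0% and 14.4% of these cells in that order. Its part in these differences was not tested. In CD4 T-like cells Serpinb1a was at 65.4 CPM in naive, 25.9 CPM in 4T1 and 17.9 CPM in 67NR (-1.34, -1.62 to -1.06, and -1.87, -2.20 to -1.56), and the summed granule proteases there were at 13.4, 10.1 and 8.17 CPM. Most Serpinb1a UMIs of CD4 T-like cells came from the cluster led by Pard3, Nebl and Trat1, at 157, 112 and 74.6 CPM, which held 285 of 653 naive, 117 of 542 4T1 and 140 of 577 67NR cells. Serpinb6b of CD4 T-like cells was at 19.8, 43.0 and 30.6 CPM (1.12, 0.80 to 1.45, and 0.63, 0.29 to 0.98), and their Serpina3g at 5.77, 3.41 and 2.04 CPM (-0.76, -1.64 to 0.089, and -1.50, -2.58 to -0.52). The cluster led by Il4, Art2b and Sostdc1 held 3.98% of naive, 21.2% of 4T1 and 16.6% of 67NR CD4 T-like cells, and its part was not tested. Regulatory T-like cells had 31.9, 35.0 and 31.4 CPM of Serpina3g, a difference within counting error (0.13, -0.11 to 0.37, and -0.02, -0.27 to 0.23).

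Past a log2 ratio of 1 were 3 of 8 measured serpins of CD4 T-like cells in 4T1 (4.04% of all measured genes) and 3 of 8 in 67NR (3.85%), 1 of 8 of CD8 T-like cells in 4T1 (2.19%) and 0 of 8 in 67NR (2.53%), and 0 of 7 and 0 of 6 of regulatory T-like cells (2.38% and 3.02%). Those of CD4 T-like cells were Serpine2 (higher) and Serpinb1a (lower) in both, Serpinb6b (higher) in 4T1 and Serpina3g (lower) in 67NR, and that of CD8 T-like cells was Serpina3g (lower). B-like cells were present in the T cell and the myeloid and stromal library and were fitted like the fibroblast-like cells over 6454 genes. In the T cell library their 156 cells were 1 cluster with the myeloid genes Lyz2 and Il1b also among its leading genes, and 49.4% of them had a UMI of the T cell gene Cd3e. By edgeR 0 of their 5 tested serpins passed in 4T1 over naive, where 0 genes passed (0.0%), 0 in 67NR over naive, where 10 did (0.155%), and 0 in 4T1 over 67NR, where 10 did (0.155%). At an unadjusted p under 0.05 there were 0, 1 and 1 serpins and 489, 335 and 481 genes in the 3 contrasts, and DESeq2 called 0, 0 and 0 serpins and 0, 9 and 5 genes.

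Targets and partners of the serpins were tested in the same fit of fibroblast-like cells, where the median log2 fold change of all genes was 0.0069 in 4T1 and 0.00017 in 67NR. Among the collagen folding partners of Serpinh1, 2 of 13 tested genes rose in 4T1 and 2 in 67NR, with medians of 0.57 and 0.47. These were Plod2, a collagen lysine hydroxylase, at 1.21 (adjusted p = 0.0308, edgeR) and 1.04 (adjusted p = 0.0281, edgeR), and Col3a1 at 1.16 (adjusted p = 0.0334, edgeR) and 0.95 (adjusted p = 0.0377, edgeR). Of the 8 plasminogen activation genes, the pathway that Serpine2 and Serpinb2 restrain, 0 passed in either contrast by edgeR, 1 and 3 had an unadjusted p under 0.05 and DESeq2 called 0 and 0, with medians of 0.23 and 0.25. Of the 7 complement proteases 0 passed by edgeR, 1 and 2 had an unadjusted p under 0.05 and DESeq2 called 1 and 0, with medians of 0.17 and 0.086. Of the 9 coagulation genes 0 passed by edgeR, 1 and 2 had an unadjusted p under 0.05 and DESeq2 called 0 and 0, with medians of 0.021 and 0.11. Of 12 cathepsins 0 passed by edgeR, 3 and 3 had an unadjusted p under 0.05 and DESeq2 called 2 and 0, with medians of 0.23 and 0.16. Of the 2 granule proteases tested 0 passed by edgeR, 0 and 0 had an unadjusted p under 0.05 and DESeq2 called 0 and 0.

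Protease inhibitors of other families had 2 of 14 higher in 4T1. These were Wfdc17, at 2.06 (adjusted p = 0.0334, edgeR), and Timp1, the tissue inhibitor of metalloproteinases, at 1.97 (adjusted p = 0.0471, edgeR). In 67NR 0 passed by edgeR, 6 had an unadjusted p under 0.05 and DESeq2 called 1. Serpini1, neuroserpin, a clade I gene outside the rule, had -1.20 (adjusted p = 0.401, edgeR) and -0.63 (adjusted p = 0.650, edgeR) in the 2 contrasts, and did not pass.

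Lists of response genes gave the following counts in the same fit. Of 10 early NF-kB targets 0 passed in 4T1 by edgeR (5 with an unadjusted p under 0.05, 2 by DESeq2) and 3 rose in 67NR, which were Nfkb1 at 0.95 (adjusted p = 0.0292, edgeR), Vcam1 at 0.94 (adjusted p = 0.0316, edgeR) and Ccl2 at 1.35 (adjusted p = 0.0292, edgeR). Of 5 acute phase genes Ptx3 rose in both contrasts, at 1.72 (adjusted p = 0.0112, edgeR) and 1.27 (adjusted p = 0.0237, edgeR). Of 10 interferon response genes 0 passed by edgeR, 3 and 6 had an unadjusted p under 0.05 and DESeq2 called 0 and 0, with medians of -0.49 and -0.69. Of the 9 dissociation genes 0 passed by edgeR, 5 and 1 had an unadjusted p under 0.05 and DESeq2 called 0 and 0, with medians of -0.39 and -0.26.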

How the data were processed

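Single cells of axillary and mediastinal lymph nodes were measured with 10x 3' RNA libraries and hashtag antibodies. The authors deposited raw UMI counts per gene and barcode, and the submitters' processing notes name Cell Ranger 7.0 and the mm10 build. Cells were kept with at least 500 UMIs, 250 genes and at most 10% mitochondrial UMIs, and a hashtag was taken at 10 or more UMIs and 3 times the next. Cells with more than 1 hashtag were left out; in the axillary atlas a doublet caller was used, and in the mediastinal atlas it marked 0 cells and doublets remain. Clustering used scanpy 1.11.5 (2000 variable genes without serpins, 30 components, 15 neighbours, resolution 1, seed 1; seeds 2 and 3 were alternatives), and names came from marker lists.

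UMIs of a class were added up within each library and condition. Classes with 20 cells per condition in 2 libraries were fitted with edgeR 4.0.16 (R 4.3.3), with the library as a block because its conditions were run together; DESeq2 1.42.0 was an alternative. The p-values measure only the spread between sums of pooled animals. Other comparisons needed 50 cells per condition and give log2 ratios with exact 95% intervals for counting error; a gene was measured where 10 UMIs were expected in the smaller sum, and past the size at a log2 ratio of 1 in either direction. A group at 0 was set at 3 UMIs. The fit was tested on simulated data. Members were described where a class held 50 of their UMIs or a comparison measured them. The results of 1 member are not reported here. The members and lists were chosen with earlier results of these data known.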

Additional observations from a re-analysis of the deposited data

Results flagged for a closer look

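Serpinb6b had ratios of opposite sign in 2 myeloid classes of the myeloid and stromal library, a difference that was not tested. In migratory dendritic-like cells the log2 ratio over naive was 0.66 in 4T1 and 0.73 in 67NR, and in monocyte-like cells it was -2.10 and -2.57. Serping1 differed in sign between the libraries in fibroblast-like cells, at 0.35 and 0.29 in the stromal library and -0.22 and -0.13 in the myeloid and stromal library, which was not tested either. The monocyte-like ratios of Serpinb6b rest on few naive cells: 8 cells of 1 cluster gave 18 of the 39 naive UMIs. The migratory dendritic-like and the monocyte-like cells came from their clusters in unequal shares by condition, as given above.

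Clusters that took no class name, and so entered no comparison other than those with wide class names, held several serpins at high levels. The stromal cluster led by Ccl20 and Coch had 586 CPM of Serpina3g, 67.1 CPM of Serpina3f, 32.1 CPM of Serpina12 and 30.3 CPM of Serpina3i. The stromal cluster led by Slpi, Lyz2 and Il1b had 85.5 CPM of Serpinb2, from 59 UMIs of which 1 cell gave 58. In the myeloid and stromal library the cluster led by Il4 and Ccl3 had 1609 CPM of Serpinb2 and 990.4 CPM of Serpinb1a, at a median of 898 UMIs per cell. A cluster led by Pcdh15, Cxcl13 and Cr2 had 369.6 CPM of Serpina1b.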

How the results depend on the processing

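For 4T1 over naive, 67NR over naive and 4T1 over 67NR in fibroblast-like cells, the counts of called genes were 57, 71 and 3 genes (3, 4 and 0 serpins). They were 92, 116 and 1 genes (5, 5 and 0 serpins) by DESeq2, 29, 70 and 3 genes (1, 4 and 0 serpins) with RLE scaling, 709, 726 and 172 genes (11, 11 and 1 serpins) without the filter on low counts. They were 100, 148 and 5 genes (3, 5 and 0 serpins) with at most 5% mitochondrial UMIs, 58, 82 and 6 genes (4, 4 and 0 serpins) with at least 1000 UMIs per cell, 48, 116 and 2 genes (4, 4 and 0 serpins) with a hashtag 10 times the next. They were 100, 256 and 8 genes (4, 6 and 0 serpins) at clustering resolution 2 and 23, 42 and 0 genes (1, 4 and 0 serpins) with cells thinned to 1000 UMIs. Among alternatives added after the data were seen, they were 15, 187 and 1 genes (2, 4 and 0 serpins) with wide class names, 22, 51 and 1 genes (2, 2 and 0 serpins) in the clusters led by Ccl19 alone, 57, 71 and 3 genes (3, 4 and 0 serpins) with clustering seed 2, which gave the same fit as above, and 63, 72 and 3 genes (3, 4 and 0 serpins) with seed 3. With no replicate block (library left out of the model) they were 0, 0 and 0 genes and 0, 0 and 0 serpins. Leaving out each sum in turn, also added, gave 17 to 622, 0 to 544 and 2 to 137 genes and 3 to 8, 0 to 10 and 0 to 1 serpins; the fewest in 67NR came without its stromal sum and the most serpins without a naive sum, and a lone sum was assumed to vary like the others. The cause of these shifts was not tested.

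Over the alternatives, 403 log2 fold changes of single serpins kept direction, and also the call where the alternative gave an adjusted p. A further 53 gained and 27 lost a call, and 3 changed sign: Serpina1a in 67NR without the 67NR sum of the myeloid and stromal library (-0.023, of a range of -0.023 to 2.53 over single sums left out) and Serpine3 in the Ccl19-led clusters (1.45 in 4T1, 1.27 in 67NR). Of the log2 ratios, 1821 moved within their interval and 300 moved beyond it, sign changes of ratios under 1 in size among them. The other 5, all of 1 or more in size, changed sign. Without the 5% of droplets richest in the gene these were Serpina10 in 4T1 fibroblast-like cells of the myeloid and stromal library (-0.35), Serpina11 in 4T1 blood endothelial-like cells (-0.53), Serpine2 in 67NR fibroblast-like cells of the stromal library (-0.19) and Serpinb9 in 67NR monocyte-like cells (0.17), which also reversed with at most 5% mitochondrial UMIs (0.059). In the 18 comparisons without a test, 40 of the 174 measured serpin ratios were 1 or more in size. Of all measured genes 2.19% to 19.1% were, by comparison. With thinned cells, which hold fewer UMIs, 5 serpin ratios were of that size, and without those droplets 8 were. The ratios measured under these settings were not counted, so the numbers cannot be compared as shares. The class with the highest level was kept for 59 to 63 of 67 gene and library pairs.

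Limits: each condition is 1 pool of animals per library, so the tests rest on 6 sums and the other comparisons have none, and a scarce serpin with under 10 expected UMIs was not compared. In the mediastinal atlas most cells took no name. Free RNA or remaining doublets, which were not told apart, can put a serpin in a class that does not express it, and close copies can share UMIs.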
